A study of Sus scrofa with 15 samples.

Results

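The genes described here carry the messages and the cell-surface equipment of immune cells in fat: chemokines, interleukins, receptors of the TNF family, toll-like receptors, Fc receptors, complement C1q, the major histocompatibility molecules of the pig (SLA) and leukocyte surface antigens (CD). They were picked by a rule on gene names, which was set with earlier results of these data known. A probe set was taken if its only symbol began with CCL, CXCL, CCR, CXCR, IL and a digit, TNF, TLR, CSF, CD and a digit, SLA-, C1Q, FCGR or FCER, or was GP91-PHOX or LOC396781. This gave 75 probe sets for 64 genes out of 3272 probe sets in all, or 3255 without the manufacturer's control probe sets. Of these, 1455 probe sets carried exactly 1 symbol and stood for 1260 genes. No gene beginning with CSF was found by the rule.

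The tissue was backfat of 15 Iberian pigs, all castrated males, taken at slaughter and hybridised to 1 Affymetrix array per animal. Of these pigs 7 ate the control feed and 8 the high-oleic feed. All pigs were on their diet for 24 weeks, from 28 kg live weight to about 110 kg, and the tissue was the inner layer of the fat. The control feed held 3130 kcal of crude energy per kg and the high-oleic feed 3360 kcal, and the control pigs were given more of it so that both groups took in equal energy and protein. Ages, litters and pens of the animals are not known here. The p-values treat the 15 animals as independent, which could not be checked. The comparison asks how a diet rich in oleic acid bears on expression in fat, here on its immune genes.

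Fat holds macrophages, lymphocytes and dendritic cells beside its adipocytes. Chemokines are small secreted proteins that draw leukocytes along a gradient by binding receptors on their surface, while Fc receptors and C1q recognise antibody and mark material for uptake. SLA molecules show peptides to T cells, class I on nearly all cells and class II mostly on antigen-presenting cells. In a piece of tissue, fewer cells of a type and less RNA per cell cannot be told apart.

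All values are log2 signals, in which a step of 1 is a doubling. The median signal of an array was 6.38 to 6.67, and precision is limited by how few arrays there are. Probe sets differ in how strongly they bind, so a higher signal of one gene than of another is not read as more RNA. Of 18 adipocyte markers 4 were in the table, ACACA, FASN, LEP and PNPLA2, and the others were not analysed here. The table held only probe sets that varied between animals, and the immune genes varied more than most: the SD within diets was above the median of all probe sets for 54 of the 75.

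Several animals stood apart. High-oleic animal 8 had the highest signal of the 15 animals in 35 of the 75 probe sets, or 46.7%, against 26.9% of all probe sets. The same array was also the lowest in 23.0% of all probe sets, but in 2.67% of the immune ones, and it had the highest signal of transcripts spiked into the RNA, 7.29, against 5.19 in the lowest array. With the spiked signal as a covariate, 34 of the 75 probe sets were higher on the high-oleic diet. High-oleic animal 4 was the lowest in 23 of the 75, or 30.7%, against 6.54% of all. Control animal 1 and high-oleic animal 2 shared a high signal of MX1, an antiviral protein induced by interferon, at 12.71 and 12.69 respectively, while the other 13 animals lay between 7.88 and 9.49. Control animal 5 weighed 133 kg, and the others 104.5 to 118 kg.

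**Figure D1:**
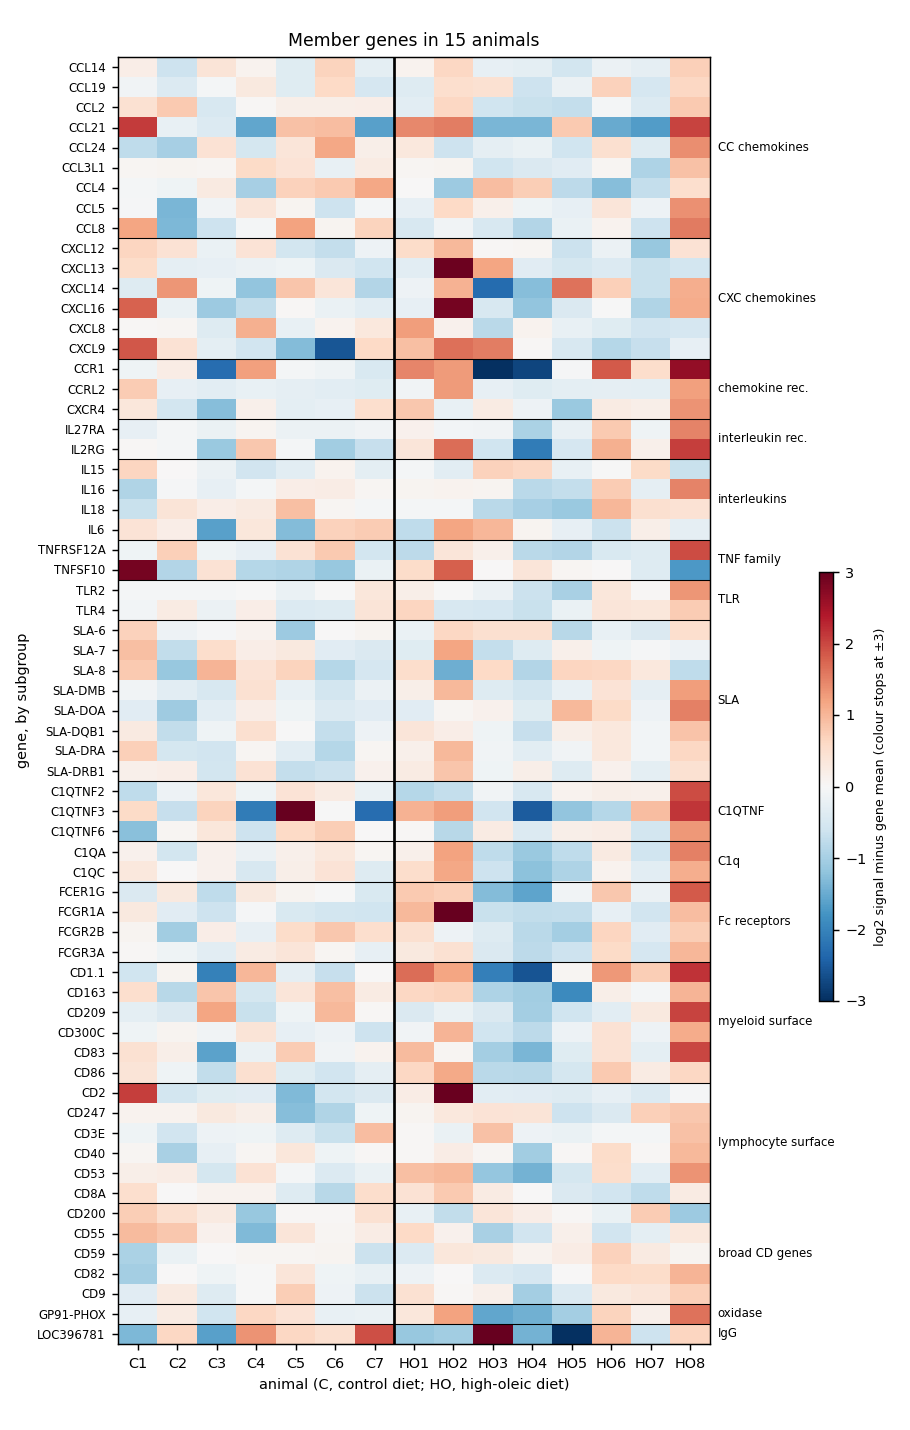
Log2 signal of the 64 genes (vertical axis, 1 probe set per gene, grouped by subgroup) in the 15 animals (horizontal axis, by diet), as the difference from each gene's mean over the animals; the colour scale stops at 3 in either direction. High-oleic animal 8 is the highest in 35 of the 75 probe sets and high-oleic animal 4 the lowest in 23.

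The map of each gene's deviation in each animal shows vertical bands before it shows any block of a diet. Many Fc receptors, C1q chains and myeloid surface antigens are high in high-oleic animals 2 and 8 and low in high-oleic animals 3, 4 and 5. The SD was larger on the high-oleic diet in 52 of the 75 probe sets, or 69.3%, against 59.9% of all probe sets. Without high-oleic animal 8 these shares were 65.3% and 43.6%. The median SD of the immune probe sets was 0.52 on the control diet and 0.72 on the high-oleic diet, or 0.60 without animal 8.

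The CC chemokines numbered 9 genes. CCL2, which draws monocytes, ranged from 9.73 through a median of 10.40 to 11.01 on the control diet and from 9.51 through 9.86 to a highest value just under that of the controls on the high-oleic diet. The groups overlapped, with high-oleic animals 2 and 8 among the highest and the other 6 at 10.16 or below. CCL5, a chemokine of T and natural killer cells, ranged from 5.41 through 6.72 to 7.14 and from 6.52 through 6.78 to 8.14. Control animal 2 was the lowest and high-oleic animal 8 the highest, and the remaining animals were mixed. CCL3L1 and CCL4, related chemokines for monocytes and T cells whose genes are neighbours in the RefSeq gene order (assembly Sscrofa11.1), had medians of 3.44 and 8.07 on the control diet and 3.23 and 7.45 on the high-oleic diet. CCL21, which guides lymphocytes and dendritic cells into lymph vessels and nodes, spread most in this subgroup. It lay at 6.96, 4.63, 4.45, 3.28, 5.72, 5.79 and 3.22 in control animals 1 to 7. In high-oleic animals 1 to 8 it was 6.30, 6.39, 3.49, 3.49, 5.64, 3.33, 3.18 and 6.88. On either diet the animals were spread over this whole range, and the groups overlapped. The SD within diets in the CC subgroup, which also held CCL14, CCL19, CCL24 and CCL8, ran from 0.44 for CCL3L1 to that of CCL21.

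Of the CXC chemokines there were 6 genes. CXCL12, a chemokine of stromal cells that retains leukocytes through CXCR4, ranged from 10.59 through 11.14 to 11.94 on the control diet and from 10.17 through 11.36 to 12.28 on the high-oleic diet. CXCL9, induced by interferon gamma and sensed by T cells, ranged from 3.45 through 5.71 to 7.87 and from 5.15 through 5.90 to 7.67. Both were highest in control animal 1 and high-oleic animal 2 within their groups. CXCL14 had 2 probe sets that moved alike (r = 0.972 over the 15 animals, which share the arrays). The brighter one ranged from 6.40 to 8.90 and from 5.26 to 9.20. CXCL8, the neutrophil chemokine, ranged from 4.13 to 5.57 and from 3.70 to 5.78. CXCL13, which draws B cells, stood at 6.76 in high-oleic animal 2 and 4.37 in control animal 1, with high-oleic animal 3 between them, and between 3.16 and 3.68 in the rest. CXCL16, a ligand made by macrophages, stood at 9.49 in high-oleic animal 2 and 8.38 in control animal 1.

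Among the receptors of chemokines, CCR1 of monocytes and granulocytes had one of the widest spreads of the table, with an SD larger than in 99.0% of all probe sets. It lay at 6.75, 7.09, 4.60, 8.10, 6.82, 6.75 and 6.42 in control animals 1 to 7. In high-oleic animals 1 to 8 it was 8.34, 8.15, 3.53, 4.12, 6.85, 8.72, 7.40 and 9.52. High-oleic animals 3 and 4 were thus far below the others of their group, and control animal 3 was below the other controls. CXCR4, the receptor of CXCL12, ranged from 5.59 through 6.62 to 7.37 and from 5.74 through 7.07 to 8.21. CCRL2, an atypical receptor that binds chemerin, ranged from 2.04 to 3.16 and from 2.03 to 3.68.

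The interleukins were IL6, IL15, IL16 and IL18. IL15, which sustains natural killer and memory T cells, had a narrow range, 8.14 through 8.55 to 9.36 on the control diet and 8.06 through 8.69 to 9.40 on the high-oleic diet. IL6, a cytokine of inflammation that fat secretes, ranged from 4.46 through 6.43 to 6.85 and from 5.32 through 6.01 to 7.28. IL18, processed by the inflammasome, ranged from 4.41 through 5.29 to 6.01 and from 3.99 through 5.03 to 6.10. The groups overlapped in these 3 genes. IL2RG, the common gamma chain of several interleukin receptors, ranged from 5.08 through 6.11 to 6.99 and from 4.08 through 6.44 to 8.26. Its lowest and highest values were both in the high-oleic group, in animals 4 and 8. IL27RA, a chain of the interleukin 27 receptor, lay between 3.53 and 3.85 in the controls and between 2.81 and 5.25 on the high-oleic diet.

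From the TNF family came TNFSF10, the death ligand TRAIL, and TNFRSF12A, the receptor of TWEAK. TNFSF10 ranged from 5.53 through 5.82 to 9.54 and from 4.95 through 6.70 to 8.46, with control animal 1 and high-oleic animal 2 the highest. TNFRSF12A ranged from 6.13 through 6.57 to 7.47 and from 5.81 through 6.26 to 8.64, the last in high-oleic animal 8. The toll-like receptors, sensors of microbial products, were TLR2 and TLR4. TLR4 had 3 probe sets, whose correlations with each other over the 15 animals were 0.885 to 0.958, and the brightest ranged from 7.37 through 7.70 to 8.17 and from 7.10 through 7.85 to 8.55. TLR2 lay between 4.84 and 5.40 in the controls and between 4.07 and 6.38 on the high-oleic diet.

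The SLA genes numbered 8. SLA-DRA, the alpha chain of a class II molecule, ranged from 10.99 through 11.51 to 12.54 on the control diet and from 11.50 through 11.87 to 12.81 on the high-oleic diet. SLA-DOA, a chain of a class II modulator, lay at 4.20, 3.48, 4.23, 4.74, 4.42, 4.15 and 4.22 in control animals 1 to 7. In high-oleic animals 1 to 8 it was 4.22, 4.61, 4.69, 4.19, 5.52, 5.13, 4.39 and 6.07. The 3 highest animals were on the high-oleic diet, and the other 5 of that group lay within the control range. SLA-8, a class I gene, stood between 6.51 and 7.47 in control animals 2, 6 and 7 and high-oleic animals 2, 4 and 8, and between 8.28 and 8.99 in the other 9. Its second probe set followed the first (r = 0.985). SLA genes of a class resemble each other and vary between pigs, so the probe sets may share or miss signal.

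C1QA and C1QC, chains of complement C1q made by macrophages, are neighbours in the gene order. C1QC ranged from 10.41 through 11.02 to 11.29 in the controls and from 9.64 through 10.78 to 12.04 on the high-oleic diet, where animals 1, 2 and 8 were above and animals 3, 4 and 5 below every control. The rule also took 3 genes named after C1q that are no complement chains, C1QTNF2, C1QTNF3 and C1QTNF6, secreted proteins with a C1q-like domain. C1QTNF3 ranged from 5.09 through 7.35 to 10.92 and from 4.87 through 7.54 to 9.52, and the highest value was in the heaviest pig, control animal 5. The Fc receptors were FCER1G, FCGR1A, FCGR2B and FCGR3A. FCGR3A, the low-affinity receptor of macrophages and natural killer cells, ranged from 9.36 through 9.72 to 10.05 and from 8.90 through 9.62 to 10.69. FCGR1A, the high-affinity receptor, stood at 6.97 in high-oleic animal 2 and between 2.88 and 4.58 in the other 14 animals.

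Among myeloid antigens, CD163, a haemoglobin scavenger receptor of tissue macrophages, ranged from 7.43 through 8.64 to 9.16 and from 6.36 through 8.33 to 9.29, lowest in high-oleic animal 5. Its 2 probe sets correlated at 0.703. CD1.1, of the family that presents lipids to T cells, ranged from 4.85 through 6.61 to 7.86 and from 4.28 through 7.82 to 9.03. GP91-PHOX, the catalytic subunit of the phagocyte oxidase, ranged from 6.91 through 7.31 to 8.12 and from 5.96 through 7.75 to 9.14. CD53, a tetraspanin of leukocytes in general, ranged from 8.85 through 9.32 to 9.81 and from 7.97 through 9.48 to 10.72. In these genes the high-oleic animals enclosed the control animals on both sides. CD247, the zeta chain of the T cell receptor complex, ranged from 7.59 through 8.97 to 9.16 and from 8.24 through 9.22 to 9.68. CD2, an adhesion molecule of T and natural killer cells, reached 6.81 in high-oleic animal 2, followed by control animal 1 with 5.91, and was 2.52 to 4.07 in the others. CD3E, which defines T cells, lay between 2.01 and 3.59.

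Other CD genes are found on many cell types. CD9, a tetraspanin, ranged from 10.97 through 11.47 to 12.35 and from 10.59 through 11.84 to 12.32. CD59 and CD55, which shield cells from complement, had opposite tendencies between diets. CD59 ranged from 7.00 through 7.96 to 8.04 and from 7.54 through 8.20 to 8.64, and CD55 from 5.40 through 6.96 to 7.67 and from 5.76 through 6.65 to 7.33. The lowest CD59 value was in control animal 1. LOC396781, an IgG heavy chain made by plasma cells, had the widest range of all 75 probe sets, 6.61. It lay at 5.17, 7.15, 4.90, 7.87, 7.16, 7.01 and 8.46 in the controls and at 5.38, 5.49, 10.08, 5.10, 3.47, 7.55, 5.91 and 7.16 on the high-oleic diet, and the groups overlapped.

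Between diets, none of these genes passed the test. In limma with Benjamini-Hochberg adjustment over all 3255 probe sets, 0 of the 75 had an adjusted p under 0.05, and the background was 0.0% (0 of 3255). At an unadjusted p under 0.05 there was 1 of 75, SLA-DOA, where the background was 3.93% (128 of 3255). The exact permutation test over all splits of the animals into 7 and 8 gave 0 after adjustment and 2 of 75 before it, SLA-DOA and CD59, with a background of 4.18%. The groups overlapped in all 75, and they did not overlap in 0.0307% of all probe sets. The 95% interval of the difference lay within a 2-fold change in either direction for 48 of the 75, so larger differences are not shown for these and remain possible for the other 27.

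**Figure D2:**
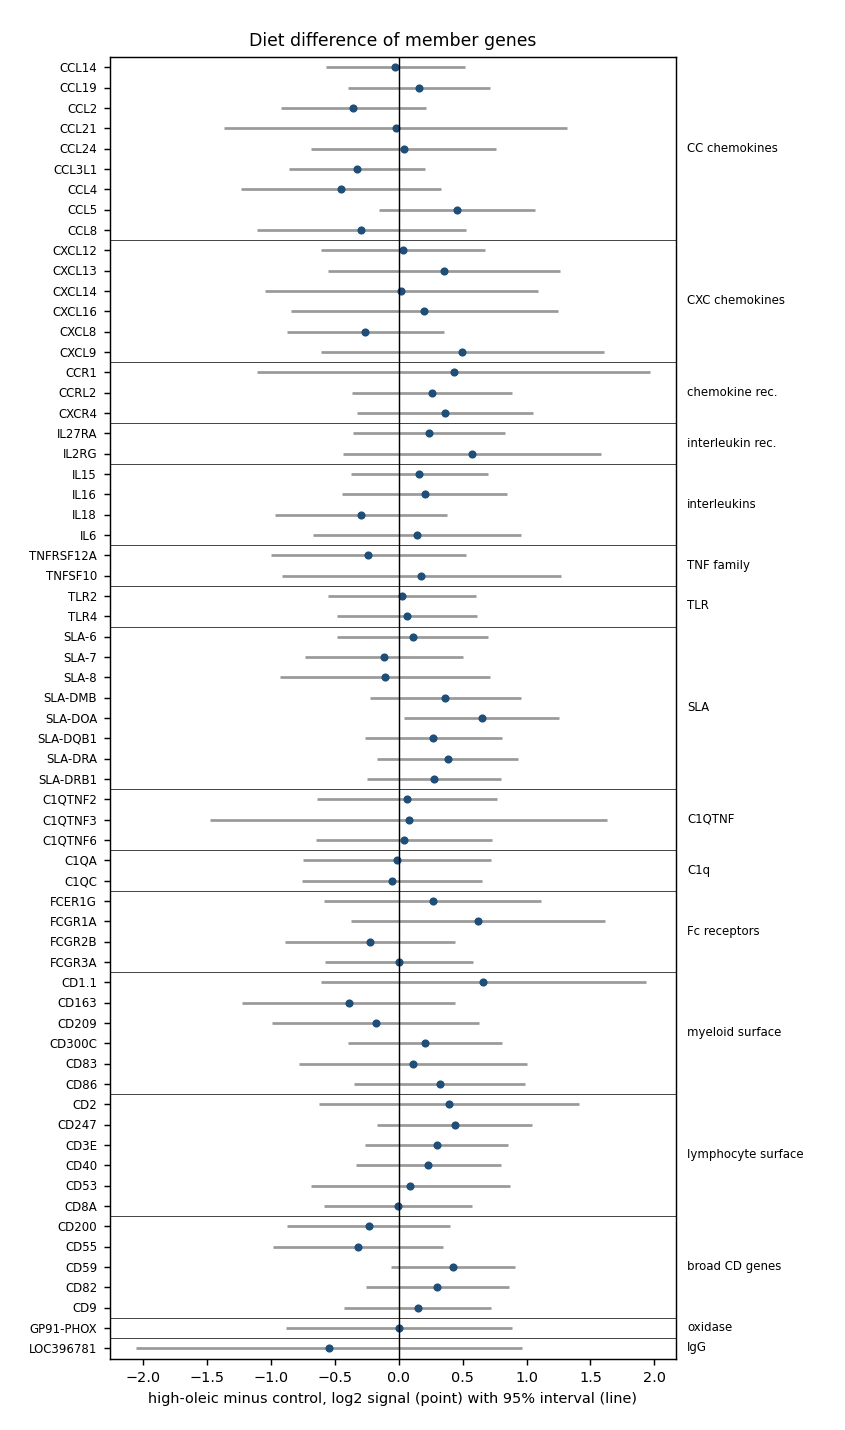
Difference in log2 signal between diets (high-oleic minus control) for the 64 genes, 1 probe set per gene, by subgroup, with 95% intervals from limma (7 control and 8 high-oleic animals). All but SLA-DOA, at 0.65, have an interval that includes 0.

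In the plot of differences by subgroup the points run from -0.55 for LOC396781 to 0.66 for CD1.1. The half-width of the interval had a median of 0.67 and was widest for the genes that varied most, such as CCR1, C1QTNF3 and LOC396781. The 5 genes with the smallest p on the higher side were SLA-DOA, CD59, CCL5, CD247 and SLA-DRA. SLA-DOA was 4.85 ± 0.67 (SD, n = 8) on the high-oleic diet and 4.21 ± 0.38 (SD, n = 7) on the control diet. The difference was 0.65 (95% interval 0.04 to 1.25), with p = 0.0393 by the exact permutation test and a limma adjusted p of 0.999. Without high-oleic animal 8 it was 0.47. CD59 differed by 0.42 (-0.06 to 0.91), CCL5 by 0.46 (-0.16 to 1.07), CD247 by 0.44 (-0.17 to 1.04) and its second probe set by 0.39, and SLA-DRA by 0.38 (-0.17 to 0.94). With live weight in the fit CD247 differed by 0.03. In the 10 animals of 109.5 to 118 kg SLA-DRA differed by 0.026. CCL5 differed by 0.27 without control animal 2, and CD247 by 0.26 without control animal 5.

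On the lower side the smallest p-values were those of CD55, CCL2, CCL3L1, CCL4 and CD163. CD55 was 6.90 ± 0.74 (SD, n = 7) on the control diet and 6.58 ± 0.54 (SD, n = 8) on the high-oleic diet, a difference of -0.32 (95% interval -0.98 to 0.34). Its other probe sets differed by -0.46 and -0.24. Without control animal 4 CD55 differed by -0.57 and without control animal 1 by -0.19, and CD163 differed by -0.15 without high-oleic animal 5. CCL2 differed by -0.36 (-0.93 to 0.21), CCL4 by -0.45 (-1.24 to 0.33), CCL3L1 by -0.33 (-0.86 to 0.21) and CD163 by -0.39 (-1.23 to 0.44). The second probe set of CD163 differed by 0.11, and CCL3L1 turned to 0.03 when signals under 4 were set to 4. Each of these genes had an adjusted p of 0.999 in limma.

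Over all roles 43 of the 64 genes, or 50 of the 75 probe sets, were higher with the high-oleic feed and the median was 0.11, where 46.8% of all probe sets were higher with a median of -0.03. This lean was lost in several settings. Without high-oleic animal 8, 37 of the 75 were higher with a median of -0.00, where all probe sets had a median of -0.02. With live weight in the fit 35 were higher (median -0.03, all probe sets 0.0075), with the spiked signal 34 (-0.03, all probe sets -0.05) and with array weights 37 (-0.02, all probe sets -0.02). Lymphocyte surface genes were higher for 5 of 6 (median 0.26), SLA genes for 6 of 8 (0.27), CXC chemokines for 5 of 6 (0.12), and all 3 chemokine receptors and both interleukin receptors were higher (0.36 and 0.40). CC chemokines were higher for 3 of 9 (-0.03) and C1q for 0 of 2. None of these members passed the adjusted test, and the lean of a subgroup was not tested. In these subgroups CD2, CD3E, CXCL13, CCRL2, IL27RA, CCL3L1 and CCL8 had mean signals under 4, near the low end of the arrays.

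The anchor of a subgroup is its probe set with the highest mean signal, which serves as a label of convenience since signals of different probe sets are not comparable as amounts. Among anchors not named above, CCR1 differed by 0.43 (95% interval -1.11 to 1.97), IL2RG by 0.57 (-0.44 to 1.58) and CD53 by 0.09 (-0.69 to 0.87). FCGR3A differed by -0.00 (-0.58 to 0.58), C1QC by -0.05 (-0.76 to 0.65) and IL15 by 0.16 (-0.38 to 0.70). CXCL12 differed by 0.03 (-0.61 to 0.67), TLR4 by 0.06 (-0.48 to 0.61), CD9 by 0.15 (-0.43 to 0.72), C1QTNF3 by 0.08 (-1.48 to 1.63) and TNFRSF12A by -0.24 (SE 0.37). The intervals of FCGR3A, C1QC, CXCL12, TLR4, IL15, CD9 and CD53 lie within 2-fold, while those of CCR1 and C1QTNF3 leave room for more. Leaving out high-oleic animal 8 gave IL2RG 0.31, CCR1 0.080 and TNFRSF12A -0.53. Without high-oleic animal 4 IL2RG differed by 0.91, and without high-oleic animal 3 CCR1 differed by 0.94.

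In each remaining subgroup the gene with the smallest p is named. CXCL9 differed by 0.50 (95% interval -0.61 to 1.60), CXCR4 by 0.36 (-0.33 to 1.05) and FCGR1A by 0.62 (-0.37 to 1.61). CD1.1 differed by 0.66 (-0.61 to 1.93), IL18 by -0.29 (-0.97 to 0.38), C1QTNF2 by 0.07 (-0.64 to 0.77), GP91-PHOX by 0.00 (-0.88 to 0.88) and LOC396781 by -0.55 (-2.06 to 0.96). Leaving out 1 animal moved several of these by more than 1.5 times. FCGR1A differed by 0.18 without high-oleic animal 2, CXCL9 by 0.11 with control animal 6 left out or 0.85 with control animal 1 left out, and CXCR4 by 0.18 when control animal 3 was dropped or 0.54 when high-oleic animal 5 was. CD1.1 gave 0.38 if control animal 3 was dropped, or 1.07 if high-oleic animal 4 was, and IL18 differed by -0.46 without high-oleic animal 6 and -0.16 without high-oleic animal 5. LOC396781 differed by -1.09 without high-oleic animal 3 and -0.15 without high-oleic animal 5. With live weight in the fit CXCL9 turned to -0.33.

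Live weight differed between the diets, so it was looked at beside each diet result. Control pigs weighed 117.2 ± 7.32 kg (SD, n = 7) and high-oleic pigs 109.2 ± 3.52 kg (SD, n = 8), a difference of -8.03 kg (two-sided exact permutation test, p = 0.00435). In the 10 animals of 109.5 to 118 kg, 6 control and 4 high-oleic, limma again placed 0 of 75 past adjustment (background 0.0%), but 10 of 75 had an unadjusted p under 0.05, where the background was 4.85%. All 10 were lower on the high-oleic diet: C1QA by -0.80, C1QC by -0.77, CCL2 by -0.79, CCL3L1 by -0.71, CD163 by -1.17, GP91-PHOX by -0.89, FCGR3A by -0.52, a TLR4 probe set by -0.76 and 2 CD53 probe sets by -0.81 and -0.88. In that window 58 of the 75 probe sets were lower, with a median of -0.33, while all probe sets had a median of -0.03. The 4 high-oleic animals in it were numbers 3, 4, 5 and 7. Over 8 macrophage markers that are not among the immune genes described here, those 4 had the lowest mean deviations of their group, -1.01, -1.21, -0.73 and -0.19, against 0.72, 0.76, 0.44 and 1.18 in high-oleic animals 1, 2, 6 and 8. The controls lay between -0.25 and 0.35.

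With diet held fixed, the slope against live weight passed the adjusted test for 0 of the 75 (limma, background 0.0%) and had an unadjusted p under 0.05 for 3 of 75, with a background of 3.81%. CXCL12 had a slope of -0.67 per 10 kg (SE 0.26), CXCL9 of -1.02 (SE 0.46) and the class I gene SLA-6 of -0.58 (SE 0.25), each with an adjusted p of 0.916. On the rising side the smallest p-values were those of C1QTNF3 at 1.22 (SE 0.67), CD59 at 0.28 (SE 0.22) and CD9 at 0.31 (SE 0.26). Of the 64 genes 42 had a negative slope, with a median of -0.17, where 45.6% of all probe sets had one and their median was 0.04. The direction was negative for all 6 CXC chemokines, all 3 chemokine receptors and 5 of 6 lymphocyte genes, and positive for 3 of 3 C1QTNF genes and 4 of 5 broad surface genes.

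**Figure D3:**
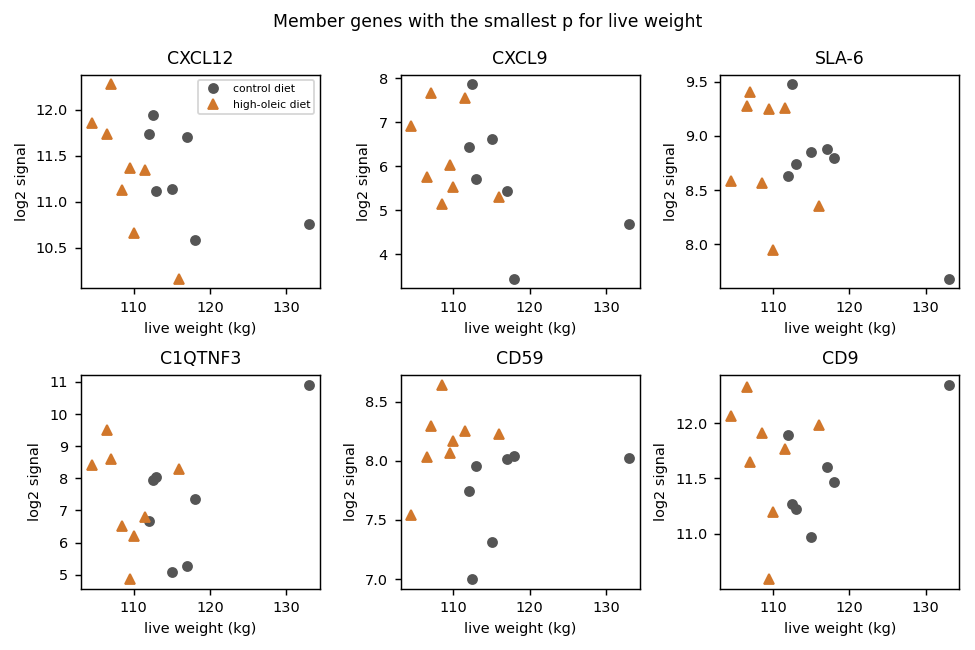
Log2 signal (vertical axis) against live weight in kg (horizontal axis) for CXCL12, CXCL9, SLA-6, C1QTNF3, CD59 and CD9, 1 point per animal (7 control, 8 high-oleic). Control animal 5, at 133 kg, stands far to the right of the others, and C1QTNF3 is highest there, at 10.92.

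The scatter of signal against weight makes plain how much the slopes hang on control animal 5. Without it CXCL12 had a slope of -1.49, CXCL9 of -1.91 and SLA-6 of -0.39. C1QTNF3 turned to -1.37 and CD9 to -0.19, and CD59 stayed positive at 0.50. In that fit 10 of 75 probe sets, for CCL21, CCL3L1, CD53, CD55, CD8A, CXCL12, CXCL14, CXCL9 and FCGR1A, had an unadjusted p under 0.05, all with a negative slope, and the background was 3.29%. None of the 75 passed adjustment, and the median slope was -0.52. With the animals' numbers as a block the median was 0.05, with 48 of 75 slopes positive. In the main fit 54.4% of all probe sets had a positive slope, with a median of 0.04. Their shares and medians in these alternative fits are not given here, so the direction of the 75 cannot be set against them.

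Over the 2016 pairs of the 64 genes, the median correlation of diet-centred values across the 15 animals was 0.29, and 74.3% of pairs were positive. Over all pairs of probe sets the median was 0.02. Without high-oleic animal 8 the median of the immune genes was 0.18, without control animal 1 and high-oleic animal 2 it was 0.30, and by ranks it was 0.25. All genes share the same arrays, so these are descriptions.

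**Figure D4:**
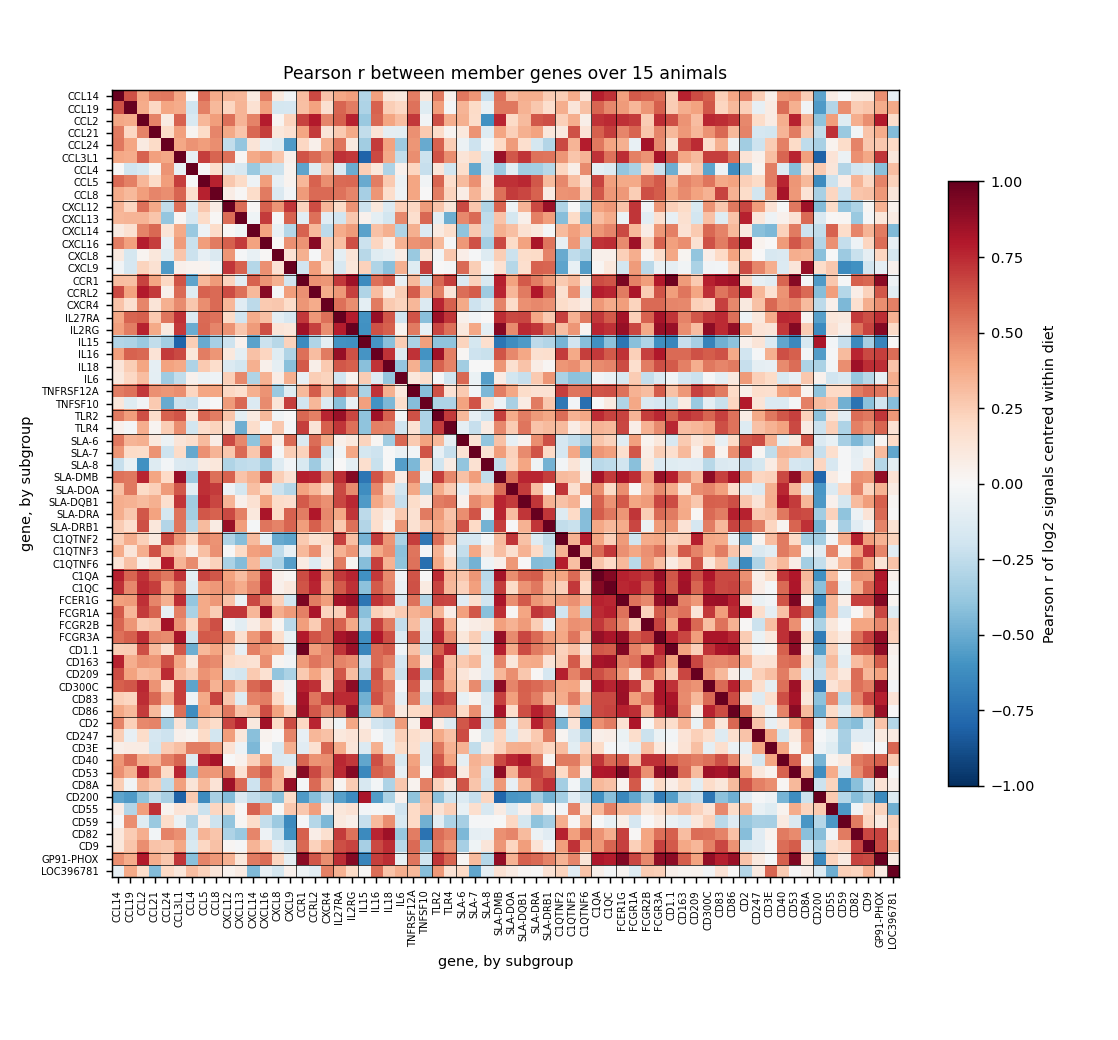
Pearson's r of diet-centred log2 signals over 15 animals for each pair of the 64 genes (both axes list the genes by subgroup, and black lines part the subgroups). Red marks positive and blue negative r; the lines of IL15 and CD200, whose median r is -0.33 and -0.34, are mostly blue.

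The matrix of pairwise correlations was summarised by subgroup. The highest medians between subgroups were 0.83 for the interleukin receptors with GP91-PHOX, 0.82 for myeloid surface antigens with GP91-PHOX, 0.80 for C1q with GP91-PHOX and 0.76 for C1q with Fc receptors. GP91-PHOX is a subgroup of 1 gene, and the interleukin receptors and C1q held 2 genes each, so these medians rest on few pairs. Within some larger subgroups the median was 0.58 for Fc receptors, 0.50 for myeloid antigens, 0.40 for CXC chemokines, 0.39 for CC chemokines and 0.33 for SLA genes. The only pair within C1q, C1QA and C1QC, is described below. The interleukins had a median of -0.26 among themselves. C1QA had the highest median correlation with the other immune genes, 0.59, followed by FCGR3A at 0.56 and IL27RA at 0.55. CD200, a surface protein that restrains macrophages, and IL15 had the lowest, -0.34 and -0.33.

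Slopes on each anchor were then tested across the whole table in limma at fixed diet, for 14 anchors of the subgroups and for MX1 as an interferon reference. Of 1106 slopes of immune probe sets 81 passed the adjusted test, or 7.32%, with a background of 2.03% (989 of 48805). A pair of anchors can be counted from both sides, and a gene with several probe sets more than once. The 81 slopes are thus not all separate gene pairs. All 81 were positive, and positive slopes alone had backgrounds of 1.87% for C1QC, 4.89% for IL2RG, 1.94% for SLA-DRA and 3.69% for MX1. At an unadjusted p under 0.05 FCGR3A had 41 of 74 (background 20.7%) and IL2RG 37 of 74 (19.6%). The phagocyte and leukocyte anchors accounted for most: FCGR3A for 17 of 74 (background 5.75%), IL2RG for 16 of 74 (5.56%), CD53 for 14 of 72 (5.41%), C1QC for 11 of 74 (1.97%) and CCR1 for 10 of 74 (4.0%). MX1 had 6 of 75 (4.24%), SLA-DRA 4 of 74 (1.97%) and CCL2 3 of 74 (0.553%). For CD9, CXCL12, IL15 and TLR4 the count was 0, with a background of 0.0%, and at an unadjusted p under 0.05 there were 18, 13, 22 and 15 (backgrounds 10.3%, 14.1%, 20.7% and 8.43%). C1QTNF3, CD163 and TNFRSF12A had 0 as well, with backgrounds of 0.307%, 0.0615% and 0.584%, and 9, 19 and 20 at an unadjusted p under 0.05 (backgrounds 7.38%, 8.33% and 21.0%). Without high-oleic animal 8 the total was 48, or 4.34%, and the background was 1.4%. Without high-oleic animal 4 it was 38, or 3.44%, and the background was 0.897%. C1QC then had 1 (background 0.184%) and 0 (0.123%), FCGR3A 7 (1.72%) and 8 (1.38%), and CCR1 9 (2.8%) and 7 (1.84%). After quantile normalization 4 of all 3254 probe sets passed for C1QC, against 64 without it.

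Among the 6 myeloid surface genes CD1.1, CD83 and CD86 passed the test with CCR1, and CD163, CD209 and CD300C did not. The nearest genes of CCR1 were SLC11A1, a metal transporter of phagosomes, LCP1, an actin bundler of leukocytes, and CD1.1. For CCR1 and CD1.1 Pearson's r was 0.968 over 15 animals (permutation p = 1e-05, the smallest that 100000 permutations can give, adjusted 0.00102 over the probe sets tested for that anchor). Spearman's rho was 0.968 (permutation p = 1e-05, adjusted 0.00163). Without high-oleic animals 3 and 4, the farthest from the median, r was 0.963, and it was 0.939 within the control animals and 0.981 within the high-oleic ones. CCR1 and FCER1G, the signalling chain of several Fc receptors, gave r = 0.945 and rho = 0.950 (both permutation p = 1e-05, adjusted 0.00102 and 0.00163), and r was 0.914 without animals 3 and 4. Within diets it was 0.849 and 0.964. Other immune genes past the test with CCR1 were IL2RG, all 3 CD53 probe sets, CD83, CD86, GP91-PHOX and a TLR4 probe set.

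**Figure D5:**
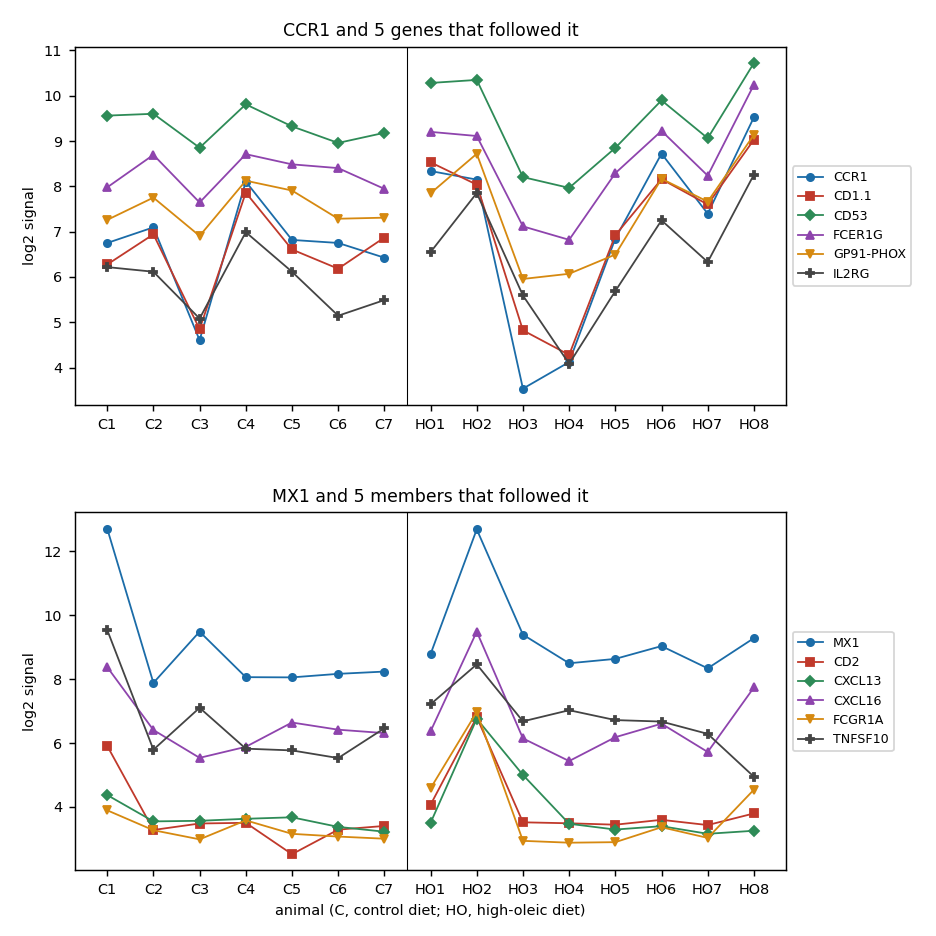
Log2 signal (vertical axis) in each of the 15 animals (horizontal axis, 7 control then 8 high-oleic) for CCR1, CD1.1, CD53, FCER1G, GP91-PHOX and IL2RG (upper panel) and for MX1, CD2, CXCL13, CXCL16, FCGR1A and TNFSF10 (lower panel); lines only guide the eye, since animals have no order. CCR1 is lowest in high-oleic animal 3, at 3.53, and highest in high-oleic animal 8, at 9.52, and MX1 is highest in control animal 1 and high-oleic animal 2.

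The profiles over animals plot CCR1 with genes picked because they followed it, and MX1 with genes picked because they followed MX1. CCR1 and GP91-PHOX were lowest in high-oleic animal 3, and CD1.1, CD53, FCER1G and IL2RG in high-oleic animal 4. CD53 was nearest to AIF1, IFI30 and TYROBP, genes of macrophages and antigen processing. With GP91-PHOX it had r = 0.932 and rho = 0.921 (both permutation p = 1e-05, adjusted 0.000614 and 0.000985), r = 0.883 without high-oleic animals 4 and 8, and 0.770 and 0.950 within the control and high-oleic animals. IL2RG was nearest to IFI30, RGS10 and ARHGAP30. With SLA-DMB, a chaperone that loads peptides onto class II molecules, it had r = 0.925 (permutation p = 1e-05, adjusted 0.00112) and rho = 0.897 (permutation p = 2e-05, adjusted 0.00224). This was 0.932 without high-oleic animals 4 and 8, and 0.882 and 0.929 within diets. FCGR3A was nearest to VAV1, IFI30 and LAPTM5. With its partner chain FCER1G it had r = 0.871 (permutation p = 3e-05, adjusted 0.00424) and rho = 0.857 (permutation p = 0.00011, adjusted 0.0150), 0.741 without high-oleic animals 4 and 8, and 0.672 and 0.907 within diets.

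C1QC was nearest to C1QA, with r = 0.918 (permutation p = 2e-05, adjusted 0.0130) and rho = 0.921 (permutation p = 1e-05, adjusted 0.0163), and 0.865 without high-oleic animals 2 and 4. Within diets r was 0.461 in the controls and 0.963 in the high-oleic animals. The next nearest were VSIG4, a complement receptor of macrophages, and HK3. With CD163 C1QC had r = 0.825 (permutation p = 0.00011, adjusted 0.0275) and rho = 0.896 (permutation p = 3e-05, adjusted 0.0325), 0.834 without high-oleic animals 2 and 4, and 0.603 and 0.911 within diets. With CD53 the pooled r of 0.805 (permutation p = 0.00026, adjusted 0.0338; rho = 0.707, permutation p = 0.00403, adjusted 0.212; 0.689 without animals 2 and 4) did not hold within both diets: it was -0.43 in the controls and 0.945 in the high-oleic animals. In a fit with a slope for each diet, chosen after seeing the data, 0 of 74 slope differences on C1QC passed adjustment (limma, background 0.0%), and 15 of 74 had an unadjusted p under 0.05 (background 6.88%).

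CD163, which did not bring any immune gene past the test, was nearest to LYVE1, a hyaluronan receptor of resident macrophages and lymph vessels, FCGR2B, the inhibitory Fc receptor, and C1QC. With FCGR2B it had r = 0.849 (permutation p = 0.00011, adjusted 0.0511) and rho = 0.793 (permutation p = 0.00077, adjusted 0.167), 0.768 without high-oleic animals 4 and 5, and 0.848 and 0.860 within diets. The adjusted p of its slope in limma was 0.129.

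Class II genes and chemokines gave fewer pairs. SLA-DRA was nearest to APOBEC3B, MOV10 and PSME1, and its 4 immune genes past the test were CXCL16, FCGR1A, IL2RG and CD2. Without control animal 1 and high-oleic animal 2 the count was 0 of 74 (limma, background 0.0%), and 33 of 74 had an unadjusted p under 0.05 (background 14.6%). The SLA-DRA count was also 0 after quantile normalization (background 0.0%). In the 15 fits that left out 1 animal it ranged from 0 to 6, and was 0 in 2 of them. CCL2 was nearest to SHTN1 and the complement genes C4A and C3, and brought CXCL16, IL2RG and GP91-PHOX past the test with limma adjusted p of 0.0329, 0.0394 and 0.0394. Permutation of r gave an adjusted p of 0.273 for CCL2 with CXCL16 (r = 0.693, permutation p = 0.00183; rho = 0.743, permutation p = 0.00210, adjusted 0.486), so the call depends on the test. The count for CCL2 was 0 in 7 of the 15 fits that left out 1 animal, which ranged from 0 to 14, and in 7 of 9 other alternatives. Without control animal 2 and high-oleic animal 5 this r was 0.814, and within diets 0.564 and 0.868.

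Other anchors had neighbours but few or no calls. CXCL12 was nearest to SLA-DRB1, CD8A, a marker of cytotoxic T cells, and LOC106504372, and IL15 to LOC100302368, GBP1 and CD200. C1QTNF3 was nearest to COL8A1, DKK3 and CAMK1D, genes of matrix and signalling, and CD9 to UCP2, IL18 and DKK3. TNFRSF12A was nearest to LOC100510975, MAP1A and FSTL3, and TLR4 to PIGX, DOCK9 and ODC1. For C1QTNF3 and COL8A1, a matrix collagen, r was 0.886 (permutation p = 1e-05, adjusted 0.0163) and rho 0.861 (permutation p = 7e-05, adjusted 0.195), with 0.833 without control animal 5 and high-oleic animal 4, and 0.891 and 0.895 within diets. These are the closest by rank of the diet-centred correlation, and nothing on shared function follows.

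With MX1 the immune genes past the test were TNFSF10, CXCL13, CXCL16, SLA-7, CD2 and FCGR1A. No pooled correlation is given, because control animal 1 and high-oleic animal 2 stand apart from the other 13. Without them 0 of 75 slopes on MX1 passed the test (limma, background 0.0%), 1 of 75 had an unadjusted p under 0.05 (background 3.26%), and r was 0.34 for TNFSF10, 0.35 for CXCL13, 0.12 for CXCL16 and SLA-7, 0.52 for CD2 and 0.21 for FCGR1A. In 11 of the 75 probe sets these animals were the highest of their own diet, against 9.22% of all probe sets. The genes were CCRL2, CD2, CXCL12, CXCL13, CXCL16, CXCL9, FCGR1A, SLA-6, SLA-7, SLA-DRA and TNFSF10.

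Other genes of the same pathways were counted from lists, each gene by its brightest probe set. Antigen presentation had 10 of 19 genes measured, all 10 higher with the high-oleic feed (median 0.18) and none past the test. Of all probe sets 46.8% were higher, with a median of -0.03. The mean deviation over these 10 genes was 0.76 and 0.72 in high-oleic animals 8 and 2 and 0.45 in control animal 1. In the other animals of both diets it lay between -0.43 and 0.08. CIITA, the master activator of class II genes, differed by 0.51 and B2M, the light chain of class I, by 0.30. Of T and natural killer markers 8 of 34 were measured, 7 higher, with a median of 0.37, but all except GNLY and GZMH are immune genes already described (CCL5, CD2, CD247, CD3E, CD8A and IL2RG). Of macrophage markers 16 of 31 were measured, 8 of them immune genes described above, with 7 higher, 9 lower and a median of -0.00. Complement had 9 of 22 measured, 3 higher and 6 lower, with C9 at -0.56, and interferon response genes had 20 of 40, 14 higher, with OAS1 at 0.52. Chemokine signalling and NF-kB targets had 4 of 41 measured, with the inducible cyclooxygenase PTGS2 at -0.90 (95% interval -1.46 to -0.34) and an adjusted p of 0.999. Cytokine signalling had 4 of 36, 2 higher, with TGFB1 at 0.26. No gene of any list passed limma's adjusted test between diets.

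Markers of other cells in the tissue also varied. The summed level of the 8 measured skeletal muscle markers ranged from 6.08 to 12.04 in the controls and from 6.46 to 11.62 on the high-oleic diet, and that of 2 plasma cell markers, JCHAIN and LOC396781, from 7.90 to 9.88 and from 7.52 to 10.92. The 16 macrophage markers summed to 13.01 to 13.51 in the controls and from 12.08 upward on the high-oleic diet, where the highest was high-oleic animal 8, and the 8 T and natural killer markers to 8.91 to 9.98 and 9.33 to 10.64. S100A9, the one neutrophil marker measured, ranged from 5.96 to 8.74 and from 5.65 to 8.44. All 9 smooth muscle markers and all 8 skeletal muscle markers were lower with the high-oleic feed (medians -0.61 and -0.39), none past the test. Of all probe sets 53.2% were lower. Mean deviations of the smooth muscle markers were 1.48 and 1.23 in control animals 1 and 6, and -0.55 to 0.25 in the others. All 3 erythroid markers were higher (median 0.52), none past the test. The part of these cells in the immune genes' differences was not tested.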

How the data were processed

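The authors deposited 1 table of log2 signals per probe set and array. The submitters' processing notes name GCOS and GCRMA, without versions or settings. In every probe set the 3rd largest deviation from the median was 1.5-fold or more, which was found from the values, so less variable genes could not be looked at and adjusted p-values refer to variable probe sets. Names came from the platform's annotation: 1455 probe sets had 1 symbol, 27 several and 1773 none, and those with several were not named. All 64 genes had an entry in the RefSeq genes of Sscrofa11.1, which gave the gene order.

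The 3255 probe sets went into linear models of limma (version 3.58.1, R 4.3.3, moderated by eBayes) with no further normalization, two-sided, with Benjamini-Hochberg adjustment at 0.05, on diet, on live weight at fixed diet and on each anchor at fixed diet. Correlations used 100000 permutations. The 15 anchors each had up to 3254 other probe sets, over which adjustment ran. The fits were tested on simulated data. Figures were drawn with matplotlib 3.10.9.

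The genes, subgroups and lists were chosen with earlier results of these data known, and the C1QTNF genes and CD1.1 were placed after their names were seen. Genes named with values are the 5 with the smallest p per direction for diet, and 3 per direction for weight. Anchors and the gene with the smallest p of each subgroup were also given values. Named as well, not all with values, were some genes past a test and the 3 nearest to each anchor but MX1. Up to 2 genes had values for some lists, and further genes were named to fill in each subgroup. Same-numbered animals of the diets did not pair, with correlations from -0.16 to 0.30. Alternatives were other scalings, filters, array weights, covariates, a weight window and leaving out animals.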

Additional observations from a re-analysis of the deposited data

Results flagged for a closer look

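In 30 named genes, each diet group was checked for a single animal far from the rest, 60 checks in all, of which about 3 (1 in 20) would stand out by chance. There were 4. C1QTNF2 was 9.20 in high-oleic animal 8, where the median of the other 7 was 7.14. TNFRSF12A in the same animal was 8.64 against a median of 6.23. FCGR1A in high-oleic animal 2 was 6.97 against 3.03. CD55 in control animal 4 was 5.40 against 7.03, and without that animal the diet difference of CD55 was -0.57.

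The slope of CCL21 on IL15 differed between diets by -5.67 (SE 0.98), with an adjusted p of 0.0493 for the interaction in limma. It was 2.89 in the controls (r = 0.82) and -2.78 in the high-oleic animals (r = -0.86). CCL21 was 1 of 74 immune probe sets past the test and the only one of all 3254 (0.0307%), so that share is no separate background. CCL21 had signals under 4 in animals of both diets. The interaction was fitted after seeing the data, for all 15 anchors. Its p was adjusted over the probe sets tested for IL15 alone. Without high-oleic animal 8 it passed for 0 of 74, and 14 of 74 had an unadjusted p under 0.05, beside 457 of all 3254 probe sets.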

How the results depend on the processing

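No immune gene passed the adjusted test for diet or live weight under any alternative run. The 81 slopes on anchors (7.32%, all probe sets 2.03%) became 53 after quantile normalization (4.79%, all 1.35%), 147 with array weights, whose estimation did not fully converge everywhere (13.3%, all 4.03%), and, chosen after seeing the data, 49 with the spiked signal in the fit and high-oleic animal 8 left out (4.43%, all 1.45%). Each animal left out in turn gave 38 to 95. Diet differences turned sign as follows. Array weights gave C1QTNF2 -0.18, C1QTNF3 -0.47, CD53 -0.080, CXCL12 -0.020 and GP91-PHOX -0.25. The spiked signal as a covariate gave C1QTNF2 -0.28, C1QTNF3 -0.071, CCR1 -0.067, CD53 -0.050, GP91-PHOX -0.24 and TLR4 -0.048. Signals under 4 set to 4 gave CCL3L1 0.032, and array median centring gave FCGR3A 0.0071. Live weight as a covariate gave CD53 -0.24, CXCL9 -0.33, CXCL12 -0.50, GP91-PHOX -0.078 and TLR4 -0.16. Animals of 109.5 to 118 kg gave C1QTNF3 -0.19, CCR1 -1.15, CD1.1 -0.59, CD53 -0.81, CD9 -0.018, CXCL12 -0.49, CXCR4 -0.032, FCGR1A -0.36, GP91-PHOX -0.89, IL2RG -0.42 and TLR4 -0.29. Without control animal 1 and high-oleic animal 2 CD53 was -0.0047 and GP91-PHOX -0.21, and TLR4 as a mean of its probe sets was -0.047. Leaving out 1 animal moved C1QC from -0.22 to 0.12, C1QTNF2 from -0.21 to 0.19, C1QTNF3 from -0.30 to 0.68, CD53 from -0.097 to 0.30, CXCL12 from -0.10 to 0.20, FCGR3A from -0.14 to 0.11, GP91-PHOX from -0.23 to 0.22 and TLR4 from -0.041 to 0.17. The live weight slope of C1QTNF3 ran from -1.37 to 1.45 and of CD9 from -0.19 to 0.39 in the same way, and without control animal 5 and high-oleic animal 7 they were -3.54 and -0.70. The slope of CD59 was -0.021 with no diet in the fit. The cause of these turns was not tested.

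The animal numbers did not pair the samples. With the number as a replicate block, 0 of 75 passed for diet or weight. High-oleic animal 8 has no partner there, so the diet differences are those without that animal and are no separate check. C1QTNF2 was -0.21, C1QTNF3 -0.23, CD53 -0.097, CXCL12 -0.026, GP91-PHOX -0.23 and TLR4 -0.041. With the block 48 of 75 weight slopes were positive, a share not set beside that of all probe sets. Each number's correlation was best with its own for 2 of 7. With 7 and 8 animals, the interval reached beyond 2-fold for 27 of 75.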
